A study of Mus musculus with 6 samples.

Results

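Matrix metalloproteinases and their tissue inhibitors (TIMPs) were described in sorted cells of the mouse left ventricle through 10 genes, the metalloproteinase genes Mmp2, Mmp3, Mmp11, Mmp14, Mmp19 and Mmp23 and the inhibitor genes Timp1, Timp2, Timp3 and Timp4. They were taken by symbol from the array annotation, and 24 probe sets carried exactly 1 of these symbols, out of 45101 probe sets for 18194 genes in all. Where a gene had several probe sets, the brightest on average stands for it. The study used male Black Swiss mice aged 8 to 10 weeks, 3 with transverse aortic constriction (TAC), which narrows the aorta and overloads the left ventricle with pressure, and 3 with sham surgery, with cells isolated 1 week later. The 6 arrays were those of Tie2cre lineage traced fibroblasts after TAC and after sham surgery, of non-lineage traced fibroblasts after TAC and after sham surgery, and of endothelial cells after TAC and after sham surgery. The Tek (Tie2) promoter, active in endothelium, drives Cre, so a traced cell or an ancestor of it had used that promoter. The labels name no reporter allele and do not say whether the RNA of several mice was pooled or whether the populations of 1 surgery came from the same hearts.

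Matrix metalloproteinases are zinc-dependent endopeptidases that cut collagens, other matrix proteins and growth factor carriers outside the cell. Most are made as inactive proenzymes, and TIMPs bind the active site of the mature enzymes. In the heart, fibroblasts are a main source of both, and the balance between enzyme and inhibitor bears on how matrix is laid down and removed under pressure load.

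The promoters of 4 of the genes are shown because these genes carry contrasts described below. Timp1 stood higher after TAC on every pair of arrays, and Timp3 and Timp4 stood lower on every pair (Timp4 at dim values in fibroblasts). Mmp3 stood above the array median in fibroblasts and below it in endothelial cells. By their brightest probe sets, Mmp14 and Mmp23 also stood higher and Mmp11 lower on every pair, each by less than 2-fold in fibroblasts. The sequences are RefSeq windows of build GRCm38.p6, 300 bases each in the direction of the gene, with 250 bases before the annotated start and 50 after it. Windows were found for 8 of the 10 genes. Capitals mark matches to 4 letter strings, each searched on both strands. The AP-1 string, bound by Fos and Jun dimers, was TGACTCA. The core of sites for ETS factors was searched as AGGAAG. The TATA box was searched as TATAAA. The GC box, bound by Sp1, was searched as GGGCGG. No marked matches overlapped in these windows.
Timp1, chrX:20869916-20870215, plus strand: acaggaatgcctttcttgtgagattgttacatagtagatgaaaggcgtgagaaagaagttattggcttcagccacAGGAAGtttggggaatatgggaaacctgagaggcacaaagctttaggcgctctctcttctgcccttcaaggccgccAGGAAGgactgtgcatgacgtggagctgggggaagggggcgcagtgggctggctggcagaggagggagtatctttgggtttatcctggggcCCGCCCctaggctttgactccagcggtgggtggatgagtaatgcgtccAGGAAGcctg
Timp3, chr10:86300162-86300461, plus strand: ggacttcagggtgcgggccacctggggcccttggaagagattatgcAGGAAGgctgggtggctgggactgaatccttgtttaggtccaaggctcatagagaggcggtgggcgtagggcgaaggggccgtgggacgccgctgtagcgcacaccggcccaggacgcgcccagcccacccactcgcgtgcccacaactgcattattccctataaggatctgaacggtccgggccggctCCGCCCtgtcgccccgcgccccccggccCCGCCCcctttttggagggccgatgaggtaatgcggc
Timp4, chr6:115252156-115252455, minus strand: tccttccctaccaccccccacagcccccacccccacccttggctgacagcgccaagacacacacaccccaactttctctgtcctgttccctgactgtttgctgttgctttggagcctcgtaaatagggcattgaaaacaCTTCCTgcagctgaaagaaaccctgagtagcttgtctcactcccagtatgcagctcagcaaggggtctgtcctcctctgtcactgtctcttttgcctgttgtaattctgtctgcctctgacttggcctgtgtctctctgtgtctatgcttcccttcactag
Mmp3, chr9:7445572-7445871, plus strand: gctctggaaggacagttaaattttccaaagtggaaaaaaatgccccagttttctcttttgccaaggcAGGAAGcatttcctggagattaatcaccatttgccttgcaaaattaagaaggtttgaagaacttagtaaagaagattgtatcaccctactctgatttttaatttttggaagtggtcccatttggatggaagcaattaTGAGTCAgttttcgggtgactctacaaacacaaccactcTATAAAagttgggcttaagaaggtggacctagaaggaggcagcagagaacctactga
The Mmp3 window held 1 AP-1 string beginning at -46 and 1 TATA string beginning at -7, counted from the annotated start. Among the 9 windows of the 8 genes (Mmp23 has 2), that of Mmp3 alone held either string, against 5.2% of all 32851 windows for the AP-1 string and 13.6% for the TATA string. The Timp1 window held 3 ETS strings, at -175, -99 and 41, and 1 GC box. ETS strings were in 35.4% of all windows and GC boxes in 35.7%. The Timp3 window held 1 ETS string and 2 GC boxes, and the Timp4 window held 1 ETS string. These are matches of letters, and no binding was measured.

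All levels below are log2 of the deposited intensity of 1 probe set, and all differences are on that scale. Levels are compared between arrays for the same gene and not between genes. With 1 array per population and surgery, differences between TAC and sham and between lineages have no error of their own and were not tested. The median intensity of an array was 106.6 to 115.2 units. A gene counted as detected in a comparison if any of its arrays had it above that array's median. By that rule 10 of the 10 genes were detected over the 6 arrays. Timp4 was not detected over the fibroblast arrays and Mmp3 was not detected over the endothelial arrays, which left 9 of the genes in each of those comparisons. Where all values on 1 side lay below their array's median, a fold is given as a lower bound, with those values raised to that median.

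The sorted populations were checked with marker lists. The endothelial marker list of 18 genes, such as the junction genes Pecam1 and Cdh5, summed to 139300 intensity units on the endothelial TAC array and 159210 on the endothelial sham array. On the fibroblast arrays it summed to 9110.7 to 9244.2 units after TAC and to 10219 to 10252 units after sham surgery. The fibroblast marker list of 18 genes, such as Pdgfra, Tcf21 and collagen genes, summed to 158880 to 168420 units on the fibroblast TAC arrays and 171760 to 173380 units on the fibroblast sham arrays. It summed to 53503 units on the endothelial TAC array and to 6081.8 units on the endothelial sham array. The endothelial TAC array thus stood apart: 17 of the 18 fibroblast markers were at least 2-fold higher there than on the endothelial sham array. Their differences ran from 0.76 to 5.26, with a median of 2.59. Of all genes detected in endothelial cells 10.9% were at least 2-fold higher. None of these markers is at 0 on any array, since the deposited values have no zeros. In bulk RNA, fewer cells of a type and less RNA per cell cannot be told apart.

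In fibroblasts 1 week after TAC, Timp1 alone among the 10 genes passed 2-fold upwards in traced and untraced cells, and the other TIMPs and Mmp3, Mmp11 and Mmp19 stood below their sham levels. Timp1, an inhibitor that also acts as a signal through cell surface receptors, was 4.15-fold higher on average. Mmp3, a stromelysin that cuts proteoglycans and activates other proenzymes, was 2.03-fold lower on average. Mmp2, a gelatinase, and Mmp23, a membrane-linked enzyme, stood within 1.16-fold of their sham levels in both populations.

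**Figure D1:**
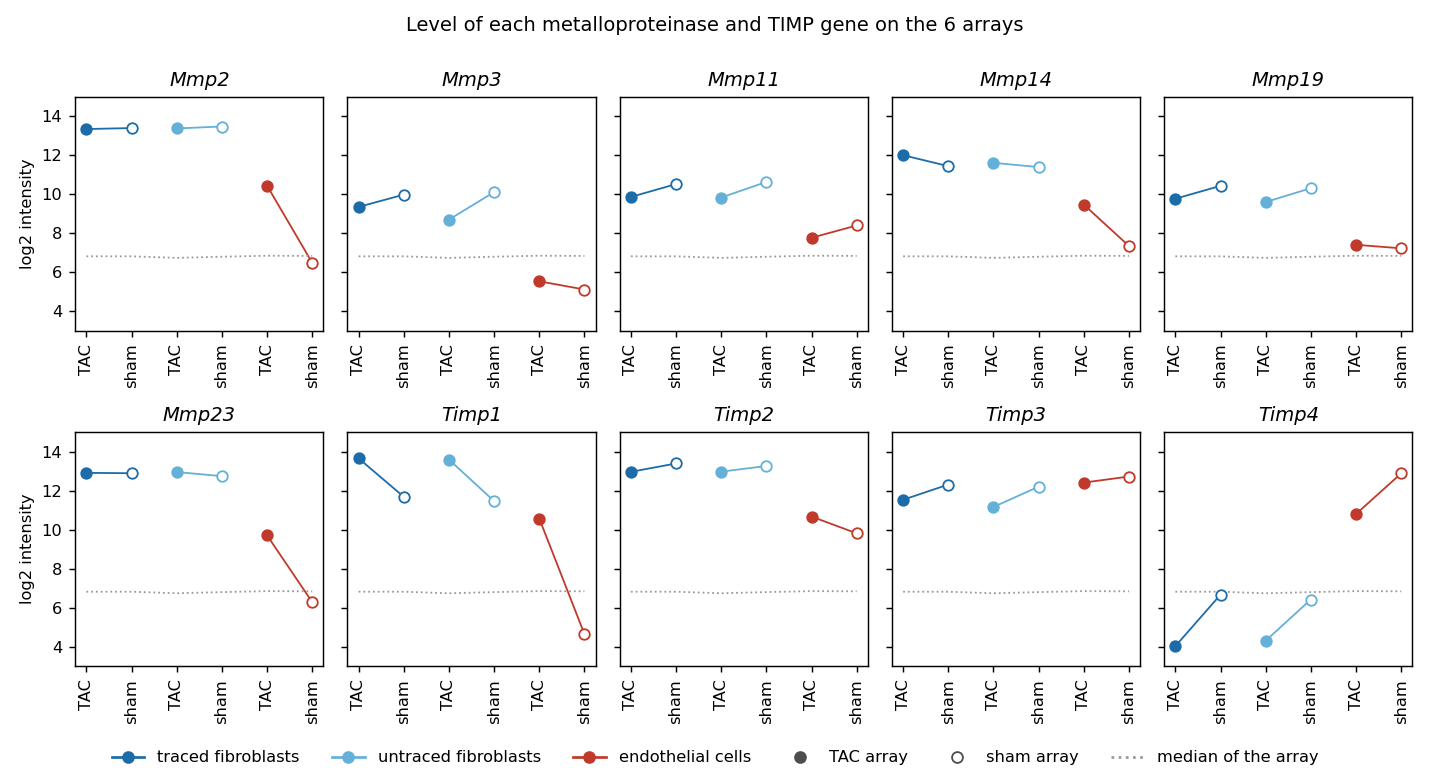
Level of each gene on each of the 6 arrays (vertical axis, log2 intensity), with TAC arrays as filled and sham arrays as open points joined by a line within a population, and with the median of all probe sets of each array dotted. Timp1, Mmp14 and Mmp23 stand higher after TAC in all 3 populations, and Timp3, Timp4 and Mmp11 stand lower in all 3. Mmp2, Mmp23 and Timp1 stand below the array median only on the endothelial sham array.

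Among the inhibitors, Timp1 stood at 13.65 in traced and 13.59 in untraced fibroblasts after TAC, against 11.68 in traced and 11.46 in untraced fibroblasts after sham surgery. Its differences were 1.97 in traced and 2.14 in untraced fibroblasts. By mean difference Timp1 ranked 199th from the top of 11623 detected genes. Timp3, which binds the matrix and also inhibits ADAM proteases, stood at 11.53 in traced and 11.16 in untraced fibroblasts after TAC, against 12.31 and 12.20 after sham surgery. The Timp3 differences were -0.78 in traced and -1.04 in untraced fibroblasts, so only the untraced pair passed 2-fold. Timp2, which besides inhibition takes part in the activation of proMMP-2 at the cell surface, stood at 12.96 and 12.97 in traced and untraced fibroblasts after TAC, against 13.39 and 13.26 after sham surgery. Its differences were small, -0.43 in traced and -0.29 in untraced fibroblasts. Timp4 stood below the array median on all 4 fibroblast arrays, at 4.03 and 4.31 in traced and untraced fibroblasts after TAC, against 6.67 and 6.42 after sham surgery. Both sides are dim, and no fold is given.

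Among the enzymes, Mmp3 stood at 9.35 in traced and 8.70 in untraced fibroblasts after TAC, against 9.98 and 10.11 after sham surgery. Its difference was -0.62 in traced and -1.42 in untraced fibroblasts. Mmp11, stromelysin-3, which is activated inside the cell by furin, stood at 9.86 and 9.83 in traced and untraced fibroblasts after TAC, against 10.52 and 10.63 after sham surgery. Its differences were -0.66 and -0.80, alike in both populations. Mmp19 stood at 9.77 and 9.60 in traced and untraced fibroblasts after TAC, against 10.43 and 10.31 after sham surgery, with differences of -0.66 and -0.71. None of these 3 enzymes passed 2-fold in both populations. Mmp14, the membrane-type enzyme that activates proMMP-2 and cuts fibrillar collagen, stood at 12.00 in traced and 11.61 in untraced fibroblasts after TAC, against 11.44 and 11.39 after sham surgery. It was the one enzyme with a positive difference above 0.5 in a fibroblast population, 0.56 in traced cells, beside 0.22 in untraced cells. Mmp2 stood at 13.34 and 13.37 in traced and untraced fibroblasts after TAC, against 13.39 and 13.47 after sham surgery. Mmp23 stood at 12.91 and 12.95 after TAC, against 12.89 and 12.74 after sham surgery. For both genes the TAC and sham values lay within 0.21 of each other in each population.

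Counted together, 1 of the 9 detected genes was at least 2-fold higher in both fibroblast populations, where 4.33% of all 11623 detected genes were, and 0 of 9 were at least 2-fold lower in both, where 1.79% of all genes were. The median of the 9 mean differences was -0.36, against 0.05 over all detected genes. Within traced fibroblasts 1 of 9 was at least 2-fold higher (6.19% of all genes) and 0 of 9 lower (2.66%). Within untraced fibroblasts 1 of 9 was higher (4.98% of all genes) and 2 of 9, Mmp3 and Timp3, were lower (2.95%). Marker lists differed by surgery in fibroblasts as well: the median difference of the 15 detected endothelial markers was -0.65 in traced and -0.39 in untraced fibroblasts, and that of the 18 fibroblast markers was -0.18 and -0.10. Against that median 3 endothelial markers, Ptprb, Erg and Ecscr, were at least 2-fold higher after TAC in both populations. Of the 9 detected markers of mural cells, the pericytes and smooth muscle of vessels, 4 were at least 2-fold lower after TAC in both populations, and their medians were -0.59 in traced and -0.82 in untraced fibroblasts. The part of other cells in the differences of Timp3 and Timp4, which endothelial cells also carry, was not tested.

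**Figure D2:**
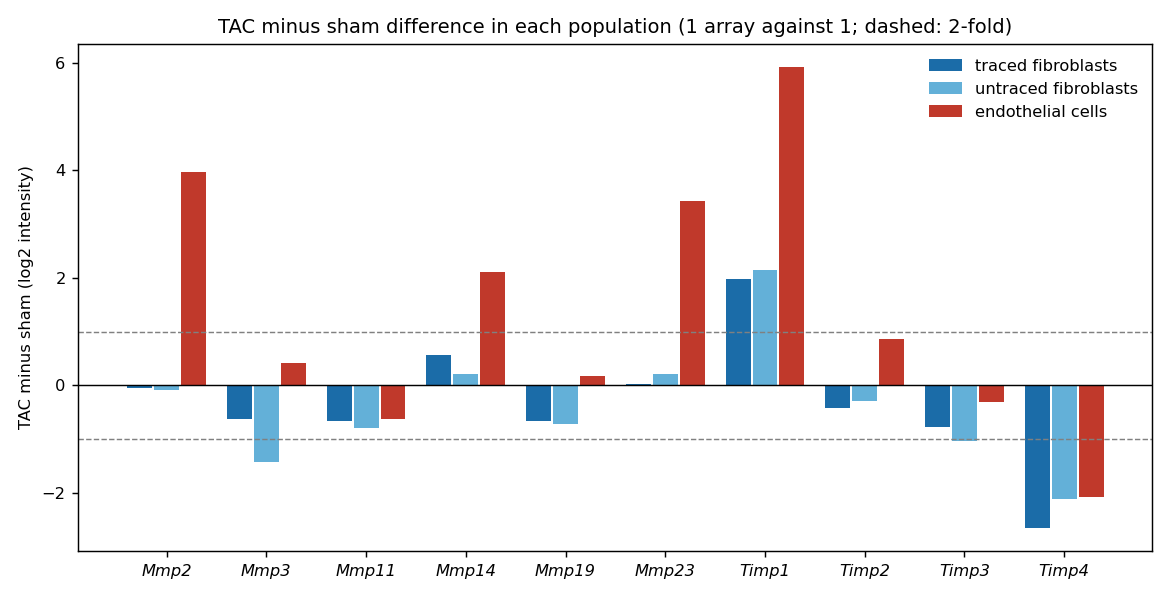
TAC minus sham difference (vertical axis, log2 intensity) of each gene in traced fibroblasts, untraced fibroblasts and endothelial cells, each from 1 array against 1, with dashed lines at 2-fold. Timp1 is above 1 in all 3 populations, and Mmp2, Mmp14 and Mmp23 pass 2-fold in endothelial cells alone.

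Endothelial cells after TAC showed higher levels of Timp1 (at least 13.2-fold), Mmp2 (at least 12.1-fold), Mmp23 (at least 7.3-fold) and Mmp14 (4.32-fold) than after sham surgery. The level of Timp4 was 4.22-fold lower. These folds are those of the brightest probe set of each gene, and the other Mmp23 probe set differed by 1.18 in log2. Timp4 is an inhibitor known for its expression in the heart. Here 4 of 9 detected genes were at least 2-fold higher, where 10.9% of all 11157 detected genes were, and 1 of 9 was at least 2-fold lower, where 1.83% of all genes were. Timp1, Mmp2 and Mmp23 passed the detection rule through the TAC array alone, where they were higher, so the count of 4 is a description and supports nothing. These 4 genes stood on the fibroblast arrays between 11.39 and 13.65, and 17 of 18 fibroblast markers were at least 2-fold higher on the same endothelial array.

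Timp1 stood at 10.57 in endothelial cells after TAC, against 4.65 after sham surgery, a difference of 5.92 that rests on a dim sham value. Mmp2 stood at 10.44 in endothelial cells after TAC, against 6.49 after sham surgery, a difference of 3.96. Mmp23 stood at 9.71 after TAC, against 6.29 after sham surgery, a difference of 3.42. On these probe sets Mmp2 and Mmp23, like Timp1, were below the array median on the endothelial sham array and above it on the endothelial TAC array. The other Mmp23 probe set stood at 8.11 after TAC, against 6.93 after sham surgery, and that sham value was above the array median of 6.84. Mmp14 stood at 9.47 in endothelial cells after TAC, against 7.35 after sham surgery, a difference of 2.11. Timp2 stood at 10.67 after TAC, against 9.81 after sham surgery, a difference of 0.86, though 4 of its 6 probe sets exceeded 2-fold. Mmp11 went the other way, at 7.77 after TAC, against 8.40 after sham surgery, with a difference of -0.63. Mmp19 differed by 0.18, at 7.41 after TAC, against 7.23 after sham surgery. Mmp3 stood at 5.54 after TAC, against 5.12 after sham surgery, both below the array median.

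Timp3 and Timp4, the inhibitors with higher levels in endothelial cells than in fibroblasts, stood lower after TAC. Timp4 stood at 10.80 in endothelial cells after TAC, against 12.88 after sham surgery, and its difference of -2.08 was the 13th lowest of the detected genes. Timp3 stood at 12.41 after TAC, against 12.72 after sham surgery, a difference of -0.31. Over the 18 endothelial markers the median TAC minus sham difference on the same arrays was -0.24, and 0 of the 18 were at least 2-fold lower, so the Timp4 difference was larger than that of any of these markers. Over the 10 cardiomyocyte markers 4 of the 7 detected ones were at least 2-fold lower in endothelial cells after TAC, against 1.83% of all genes. This list summed to 4376.3 intensity units on the TAC array and 9309.5 on the sham array, while the mural markers had a median difference of -0.55, with 2 of 9 at least 2-fold lower. The part of either list in the Timp4 difference was not tested.

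The endothelial level was also expressed as a share of the fibroblast level at the same surgery, the mean log2 level of traced and untraced cells taken back to intensity. For the 8 genes that stood higher in fibroblasts this share was 8.94% to 23.8% after TAC, with a median of 16.5%, against 0.815% to 22.1% after sham surgery, with a median of 4.63%. The sham shares of Mmp2, Mmp23 and Timp1 and both shares of Mmp3 rest on endothelial values below the array median. For the 18 fibroblast markers it was 5.65% to 64.5% after TAC, with a median of 14.4%, against 0.366% to 11.6% after sham surgery, with a median of 2.86%. The shares of Timp1 (12.0%), Mmp2 (13.3%), Mmp23 (10.7%) and Mmp14 (19.7%) after TAC thus lay inside the range of the marker list. Fibroblast RNA in the endothelial sample and expression by endothelial cells cannot be told apart here, and the part of the marker shift in these 4 differences was not tested.

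**Figure D3:**
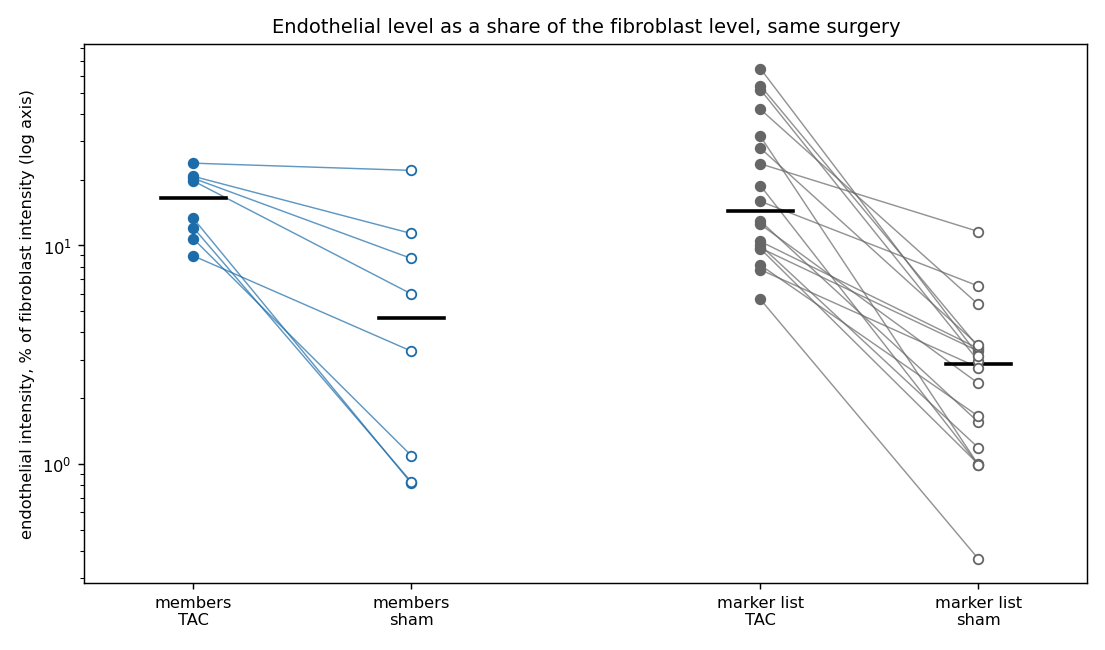
Endothelial intensity as a percentage of the mean fibroblast intensity at the same surgery (vertical log axis), for the 8 genes that stood higher in fibroblasts (left) and for the 18 fibroblast markers (right), TAC filled and sham open, with 1 point per gene and a bar at the median. The medians are 16.5% after TAC and 4.63% after sham surgery for the 8 genes, and 14.4% and 2.86% for the marker list.

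By cell type, fibroblasts had the higher level of 8 of the 10 genes and endothelial cells that of Timp3 and Timp4. In the limma fit over 12257 detected genes, with 2 values per cell type (TAC and sham, traced and untraced arrays averaged), calls required 2-fold or more and a Benjamini-Hochberg adjusted p below 0.05. By that rule Mmp3, Mmp11, Mmp19 and Timp2 were called higher in fibroblasts, 4 of 10 against 11.5% of all genes, and Timp4 was called higher in endothelial cells, 1 of 10 against 6.5% of all genes. Mmp3 passed the detection rule through the fibroblast arrays alone and Timp4 through the endothelial arrays alone, so these counts are descriptions. The spread in this fit is that between surgeries. The p-values measure only that spread, which may be technical.

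Mmp3 averaged 9.53 ± 0.72 in fibroblasts and 5.33 ± 0.30 in endothelial cells (SD, n = 2 each). The difference was 4.21 (standard error 0.423; limma, Benjamini-Hochberg adjusted p = 0.00906), and all 4 fibroblast arrays stood above both endothelial arrays. With both endothelial values below the array median, the fold is at least 6.45. Mmp19 averaged 10.02 ± 0.49 in fibroblasts and 7.32 ± 0.13 in endothelial cells, a difference of 2.71 (standard error 0.318; limma adjusted p = 0.0120). Timp2 averaged 13.14 ± 0.26 in fibroblasts and 10.24 ± 0.61 in endothelial cells, a difference of 2.91 (standard error 0.375; limma adjusted p = 0.0146). Its 4 fibroblast values also lie above both endothelial values. Mmp11 averaged 10.21 ± 0.52 in fibroblasts and 8.09 ± 0.44 in endothelial cells, a difference of 2.12 (standard error 0.383; limma adjusted p = 0.0285). Mmp11 differed by nearly the same fold at both surgeries, 4.20-fold after TAC and 4.52-fold after sham surgery.

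Timp4 averaged 5.36 ± 1.68 in fibroblasts and 11.84 ± 1.47 in endothelial cells, a difference of -6.48 (standard error 1.06; limma adjusted p = 0.0235). With the fibroblast values below the array medians, Timp4 was at least 16.2-fold higher in endothelial cells after TAC and at least 67.0-fold higher after sham surgery. Timp3 was high in both cell types, at 11.80 ± 0.64 in fibroblasts and 12.56 ± 0.22 in endothelial cells. Its difference of -0.76 did not pass (limma adjusted p = 0.233), with a 95% interval from -1.77 to 0.25. On this probe set both endothelial arrays stood above all 4 fibroblast arrays for Timp3, with the closest pair at 12.41 and 12.31. On another Timp3 probe set the endothelial TAC array, at 12.01, stood below the traced and untraced fibroblast sham arrays, at 12.21 and 12.22.

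The 4 genes with the largest endothelial TAC minus sham differences did not pass the fit. With surgery as a block they passed (limma adjusted p from 0.00437 to 0.0111). The block fit assumes 1 cell type difference for both surgeries, whereas that of Timp1 was 3.05 after TAC and 6.92 after sham surgery. It called 2298 genes over the array higher in fibroblasts, against 1415 without the block, so its p-values carry little weight for these genes. Timp1 averaged 12.59 ± 1.45 in fibroblasts and 7.61 ± 4.19 in endothelial cells, a difference of 4.99 with an interval from -0.50 to 10.48 (limma adjusted p = 0.168). Mmp2 differed by 4.93 with an interval from 1.43 to 8.42 (limma adjusted p = 0.0691). Mmp23 differed by 4.87 with an interval from 1.83 to 7.90 (limma adjusted p = 0.0523). Mmp14 differed by 3.20 with an interval from 1.25 to 5.16 (limma adjusted p = 0.0501). For all 4 the fibroblast values lie above the endothelial values on every array, and the fold differed between the surgeries. Mmp2 was 7.54-fold higher in fibroblasts after TAC and at least 96.0-fold after sham surgery, and Timp1 8.31-fold and at least 26.5-fold. Mmp23 was 9.31-fold and at least 62.7-fold higher, and Mmp14 5.07-fold and 16.7-fold. On the other Mmp23 probe set, above the array median on both endothelial arrays, the differences were 3.59 after TAC and 4.36 after sham surgery. Leaving out an endothelial array leaves 1 value for that cell type, with the spread taken from fibroblasts alone, so only differences are given. Without the endothelial TAC array they were 6.9 for Mmp2, 7.95 for Timp1, 6.58 for Mmp23 and 4.26 for Mmp14. Without the endothelial sham array they were 2.95, 2.03, 3.16 and 2.15. Mmp11 differed by 1.81 without the endothelial TAC array and by 2.44 without the endothelial sham array, and Timp4 by -7.52 and -5.44.

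**Figure D4:**
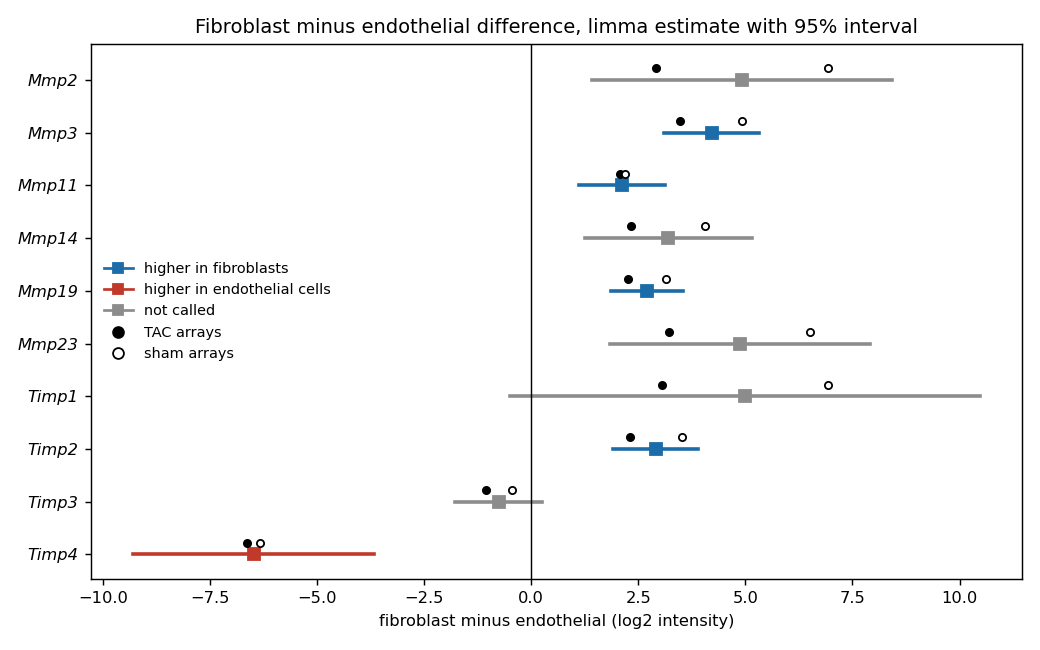
Fibroblast minus endothelial difference of each gene (horizontal axis, log2 intensity): squares are the limma estimates with 95% intervals from 2 values per cell type, coloured by call, and dots are the differences at TAC (filled) and sham (open). The TAC and sham dots lie far apart for Mmp2, Mmp23 and Timp1 and close together for Mmp11 and Timp4.

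Traced and untraced fibroblasts differed by less than 2-fold in the level of each detected gene. No gene of the 9 detected ones was 2-fold higher or lower in traced cells at both surgeries, where 0.0344% of all genes were in each direction. For the probe sets of highest mean, the largest differences were those of Mmp3, 0.66 after TAC and -0.14 after sham surgery, Mmp14, 0.39 and 0.05, and Timp3, 0.37 and 0.11. Other probe sets gave larger ones, up to 0.81 after TAC for Mmp14, and 0.73 after TAC and 0.52 after sham surgery for Timp3. The 9 genes ranged from -0.04 to 0.66 after TAC and from -0.14 to 0.23 after sham surgery. Over all detected genes the middle 90% ran from -0.44 to 0.42 after TAC and from -0.55 to 0.36 after sham surgery.

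Genes with several probe sets could be checked against themselves. The 4 probe sets of Timp3 gave mean fibroblast TAC minus sham differences from -1.31 to -0.91, and the 3 of Mmp14 from 0.20 to 0.39. The 6 of Timp2 ranged from -0.90 to -0.14 in fibroblasts and from 0.82 to 1.98 in endothelial cells. With traced and untraced fibroblasts averaged, all probe sets of these 3 genes therefore pointed the same way within a cell type. In untraced fibroblasts alone the 3 of Mmp14 gave 0.22, 0.00 and -0.01. The 2 probe sets of Mmp23 disagreed in size in endothelial cells, 3.42 and 1.18, and those of Timp4 in fibroblasts, -2.38 and -1.16, where both stood below the array median. Mmp3, Mmp11 and Timp1 had a single probe set each, so no such check exists for them.

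**Figure D5:**
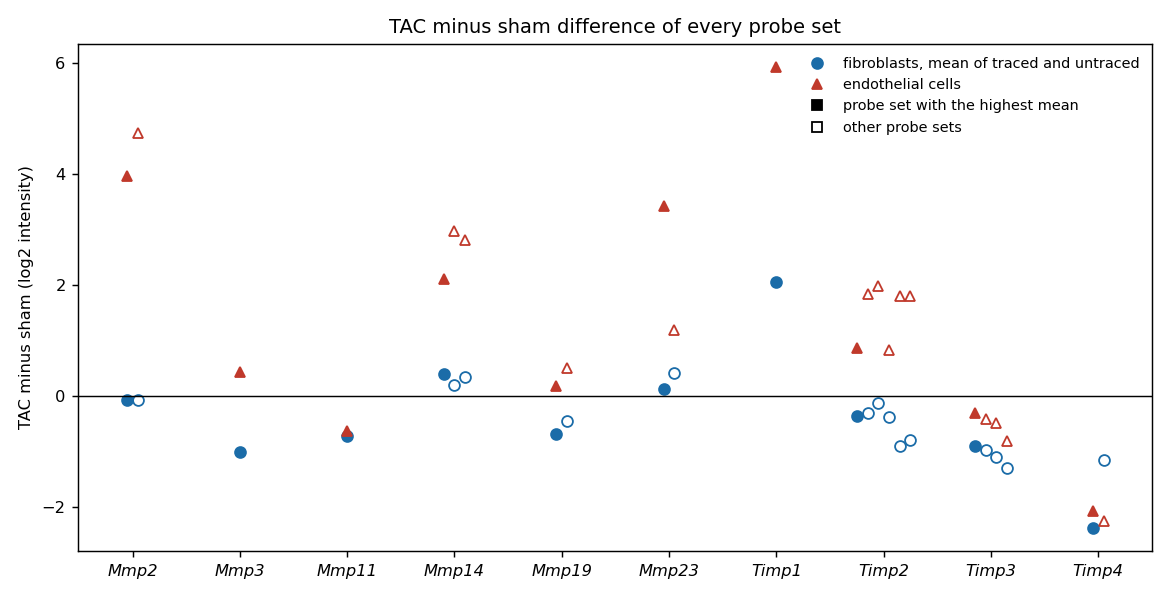
TAC minus sham difference (vertical axis, log2 intensity) of all 24 probe sets, as circles for the mean of the fibroblast populations and triangles for endothelial cells, with the probe set of highest mean filled. Every gene with several probe sets keeps its direction in both cell types, and the sizes differ most for Mmp23 and Timp2 in endothelial cells and for Timp4 in fibroblasts.

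Other genes of the family and its surroundings were read from lists. Of 17 further metalloproteinase genes 12 were measured, the other 5 are not analysed here, and 3 were detected: Mmp16, Mmp17 and Mmp24, all membrane-bound enzymes. Mmp16 was higher in fibroblasts by 3.68 (standard error 0.233, limma adjusted p = 0.00464). Its endothelial values, 4.99 after TAC and 4.74 after sham surgery, lay below the array median. Mmp16 thus passed the detection rule through the fibroblast arrays alone. None of the 3 was 2-fold different between TAC and sham in both fibroblast populations. The collagenase Mmp13, the neutrophil collagenase Mmp8, the gelatinase Mmp9 and the macrophage elastase Mmp12 stood below the median on all 6 arrays, with Mmp9 at 5.68 to 5.97.

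Of 20 genes that activate, anchor or restrain metalloproteinases 15 were detected over the 6 arrays. Of these 3 were called for fibroblasts, against 11.5% of all detected genes, and 3 for endothelial cells, against 6.5%. The clearance receptor gene Lrp1 (4.80), the convertase gene Pcsk6 (3.37) and Reck, a membrane-anchored metalloproteinase inhibitor (3.00), were higher in fibroblasts. The junction gene Cldn5 (-5.73), the caveolin gene Cav1 (-3.52) and the urokinase receptor gene Plaur (-1.47) were higher in endothelial cells. In fibroblasts after TAC, 2 of 15 passed 2-fold upwards in both populations (4.33% of all detected genes did) and 1 downwards (1.79%). The higher ones were Lcn2, whose product binds MMP-9 (1.80 in traced and 1.45 in untraced cells), and the hyaluronan receptor gene Cd44 (1.15 and 1.23). Lcn2 stood above the array median on the traced TAC array alone, at 7.35, so its differences rest on dim values. The lower one was the proteoglycan gene Spock2 (-1.79 and -2.60). In endothelial cells after TAC 4 of 14 were at least 2-fold higher (10.9% of all detected genes were) and 0 lower (1.83%). The 4 were Pcolce, an enhancer of procollagen processing (2.27), Lrp1 (2.02), the urokinase gene Plau (1.33) and Reck (1.07).

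Of 22 genes of cytokines, cytokine receptors and transcription factors linked to the induction of metalloproteinases or Timp1, 19 were detected in fibroblasts. After TAC 1 of 19 was at least 2-fold higher in both populations (4.33% of all detected genes were) and 0 were lower (1.79%). The higher gene was Il6, a cytokine gene (3.10 in traced and 3.53 in untraced cells). Of 7 AP-1 genes in the list, Fos, Fosb, Fosl2, Jun, Junb and Jund were detected in fibroblasts, and their differences ran from -0.35 (Jund, untraced cells) to 0.36 (Fos, untraced cells). Fosl1 was not detected there. In endothelial cells 4 of 20 were at least 2-fold higher after TAC, against 10.9% of all detected genes. They were Il6 (6.55), Il1b (1.82), Tgfb3 (1.35) and Fosl2 (1.21). Il6 and Il1b stood below the array median after sham surgery there, at 3.71 and 6.04, so their differences rest on dim sham values. On the same arrays 3 of 8 detected macrophage markers were at least 2-fold higher, Csf1r (1.74), Cd68 (1.30) and Tyrobp (1.15), with a median of 0.83 over the list, and their part in the Il1b difference was not tested. By cell type Tgfb2 (3.23), Tgfb3 (3.09) and Lif (2.45) were called higher in fibroblasts, and Ets2 (-2.90), Ets1 (-1.86), Fosl1 (-1.80) and Tgfb1 (-1.49) in endothelial cells. Lif passed the detection rule through the fibroblast arrays alone and Fosl1 through the endothelial arrays alone.

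Of 21 genes of metalloproteinase substrates 19 were detected. In fibroblasts after TAC 2 of them passed 2-fold upwards in both populations (4.33% of all detected genes did) and 1 downwards (1.79%). Tenascin, Tnc, differed by 2.76 in traced and 3.84 in untraced cells and fibronectin, Fn1, by 1.63 and 2.01, while the growth factor carrier gene Igfbp3 differed by -1.86 and -1.62. In endothelial cells 11 of 19 were at least 2-fold higher after TAC, against 10.9% of all detected genes. They were led by Tnc (4.62), Vcan (4.45), Col1a1 (4.43), Col3a1 (4.41) and Col1a2 (4.39). Tnc and Vcan stood below the array median after sham surgery there, at 5.97 and 6.11. Of the 21 listed genes 4, Col1a1, Col1a2, Col3a1 and Dcn, are also fibroblast markers here. The laminin gene Lama2 (4.74) and elastin, Eln (2.36), were called higher in fibroblasts.

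The genes whose levels followed Timp1 and Timp4 most closely over the 6 arrays are given as a description. For Timp1 they were Col8a1, Cd320, Ltbp2, Ccn2 and Txlna, with Pearson correlations of 0.995 to 0.999. Ltbp2 stood at 12.83 and 12.67 in traced and untraced fibroblasts after TAC, against 11.19 and 11.20 after sham surgery. In endothelial cells Ltbp2 stood at 9.75 after TAC, against 4.57 after sham surgery. For Timp4 they were Siah1a, Lama3, Cavin1, Mtus1 and Dock9, with correlations of 0.997 to 0.999. The 6 arrays hold only 2 cell types, and arrays of 1 surgery may share mice.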

How the data were processed

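Cells sorted from the left ventricle were profiled on 6 Affymetrix mouse arrays; per the labels, each used 200 ng of RNA. The deposited values are probe set intensities between 3.82 and 37205 on a linear scale. The submitters' processing notes name RMA, which corrects background, normalizes between arrays and summarises probes. The sources used here give neither its version nor the step back from log2. RMA gives no detection call and pulls differences of dim probe sets towards 0. No further normalization was applied before log2 of the deposited intensity was taken. Probe sets were named by the platform table, with symbols brought up to date through gene identifiers (99.4% found): 34958 probe sets had 1 symbol, 932 several and 9211 none listed.

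The cell types were tested against each other over 12257 detected genes by limma 3.58.1 (R 4.3.3), using for each surgery the mean of its traced and untraced fibroblast arrays, with Benjamini-Hochberg adjustment over all of them. Differences of 1 array against 1 were counted at 2-fold. For arrays, their number limits the precision. The 10 genes and the gene lists were chosen with earlier results of these data known. Named genes are the 10 members, up to 5 genes of each other list and comparison that were called or passed 2-fold, chosen by size, and the 5 genes most correlated with Timp1 and Timp4; Mmp8, Mmp9, Mmp12, Mmp13, Mmp17, Mmp24, Fos, Fosb, Jun, Junb, Jund, Ptprb, Erg, Ecscr, Csf1r, Cd68 and Tyrobp were named after their values were seen. Alternatives changed the probe set, the scaling, the filter, the pseudocount, the averaging, the block and the arrays included. Of the arrays, 0 pairs held identical values.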

Additional observations from a re-analysis of the deposited data

Results flagged for a closer look

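By sign alone, whatever the size, 4 of the 10 genes stood lower after TAC in both fibroblast populations and higher in endothelial cells. The share of all genes with such opposite signs was not computed, so the count is a description. The difference between the responses was not tested, since each rests on 1 array against 1. For Mmp2 the endothelial TAC minus sham difference exceeded the fibroblast mean by 4.03, with fibroblasts near 0. For Mmp3 it exceeded it by 1.44, with both endothelial values below the array median. For Timp2 the gap was 1.22 and for Mmp19 it was 0.87. The endothelial difference of Mmp19, 0.18, equalled the median over all genes detected in endothelial cells. The fibroblast marker list had a median TAC minus sham difference of 2.59 in endothelial cells and of -0.14 in fibroblasts, and its part in these gaps was not tested. Groups of 1 array allow no search for outlying samples.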

How the results depend on the processing

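Timp1 stayed at least 2-fold higher after TAC in both fibroblast populations under every scaling, pseudocount and filter tried (it has 1 probe set) and in either population alone, with a mean difference of 1.97 to 2.14. The count of genes of the family at least 2-fold lower in both was 0, but 1 without a filter on dim genes, where Timp4 enters, and 0 to 2 when only 1 fibroblast population was used. In endothelial cells 4 or 5 genes were at least 2-fold higher and 1 was lower under all alternatives. The fifth was Timp2, at 1.51 with the mean of its probe sets and 1.83 without those of possible cross-hybridisation, and Mmp23 was at 2.30 with the mean of its probe sets. The differences of Timp1 ranged from 4.76 to 6.04 there and those of Mmp2 from 3.55 to 4.34, while the Mmp2 difference in fibroblasts ran from -0.09 to 0.00. Quantile normalization moved the median of all endothelial TAC minus sham differences to 0.05, against 0.18. With an upper quartile filter 256 genes of the array passed 2-fold upwards in both fibroblast populations, and 618 higher and 132 lower in endothelial cells. With untraced fibroblasts alone 340 genes were at least 2-fold lower. Counts of genes of the whole array 2-fold apart by lineage at both surgeries, 4 in each direction, varied from 0 to 7 over the settings with both surgeries and reached 42 with 1 surgery alone.

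The calls between cell types changed with how the spread was measured and with the endothelial arrays included. With surgery as a block 8 of the 10 genes were called higher in fibroblasts, with 2298 genes called over the array, and with traced and untraced arrays entered separately also 8, with 2211. Leaving out 1 array at a time gave 4 to 7 genes of the family higher in fibroblasts and 0 to 1 in endothelial cells, with 654 to 1724 genes over the array higher in fibroblasts and 445 to 818 higher in endothelial cells. Without an endothelial array the lone other one is assumed to vary like the fibroblasts, so no counts are given. The calls of Mmp11, Mmp19 and Timp4 did not hold without the endothelial sham array, nor that of Mmp11 without the endothelial TAC array. Mmp14 lay at the threshold and passed under quantile normalization (limma adjusted p = 0.0496), under median centring (0.0483) and without probe sets whose suffix marks possible cross-hybridisation (0.0489), but not with the mean of all probe sets (0.0949), without a filter (0.0624) or with the upper quartile filter (0.0535). No direction between cell types turned under any alternative. No paired analysis was possible because every array has the replicate number 1, as far as pairing by number goes; the pairing of cell types within a surgery is the block given above.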
